A study of Mus musculus with 4 samples.

Results

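The genes described here encode the constitutive subunits of the proteasome, its assembly chaperones of the base, and its activators. They are the mouse RefSeq protein-coding genes whose symbol is Psma, Psmb, Psmc, Psmd or Psme with a number, without Psmb8 to Psmb11, the inducible and thymic catalytic subunits. The rule gave 39 of 21631 protein-coding genes, on 16 chromosomes: 8 genes of the core alpha rings, 7 of the core beta rings, 9 of the base, 3 base assembly chaperones, 8 of the lid and 4 activators. A library counted as calling a gene if the summit of a peak lay within 1 kb, or 5 kb, of either end of the gene interval, and the same rule applied to every protein-coding gene gave the background. The rule uses gene symbols only.

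The peaks come from CUT&RUN, an assay in which a nuclease tethered to an antibody releases short DNA fragments from chromatin. Medullary thymic epithelial cells of 4 to 5 week-old mice, enriched for EpCAM and sorted into mTEClo and mTEChi, were used at 500000 cells per condition, with 2 libraries of each state, numbered 1 and 2. All libraries carry the genotype Trp53-WT, and the labels do not give the number of mice, their strain or whether a number stands for separate mice, so a p-value here reflects the spread among the 4 libraries, which could be technical. Sample titles give anti-p53 as the antibody but the protocol gives one against BAF155, so the protein whose sites are listed is not settled, and no control antibody library was analysed here. The names mTEClo and mTEChi stand, in common usage, for low and high MHC class II on the cell surface. The lists held 89809, 69359, 73510 and 85308 peaks in mTEClo 1, mTEClo 2, mTEChi 1 and mTEChi 2, the order kept below, and sequencing depth is unknown. Of 8 mTEC marker genes, among them Epcam, Foxn1 and Aire, all 8 were called within 5 kb in every library. Within 1 kb 6, 7, 6 and 5 were called, where 47.3%, 35.7%, 37.4% and 37.4% of all genes were. All 4 libraries called 3 within 1 kb, namely Aire, H2-Aa and Cd40, against 17.1% of all genes. Of 6 thymocyte genes 2, 2, 0 and 1, and of 4 genes of cortical thymic epithelium 2, 2, 2 and 1, were called within 1 kb. Within 5 kb 4, 4, 2 and 5 of 6 thymocyte genes and 3, 4, 2 and 4 of 4 genes of cortical thymic epithelium were called, where 69.2%, 59.7%, 59.8% and 64.1% of all genes were. A peak at a gene does not show expression, so these counts are no measure of purity.

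The proteasome cuts proteins that carry ubiquitin chains into peptides. Its core is a barrel of 2 outer alpha rings, which gate entry, and 2 inner beta rings, which hold the catalytic sites. A regulatory particle caps the barrel: its base contains a ring of ATPases that unfold the substrate, and its lid removes ubiquitin. Activators of the Psme family open the barrel without the regulatory particle. In thymic epithelium the peptides made by proteasomes are shown on MHC class I to developing T cells, and the transcription factor p53 is itself a substrate. Proteasome genes are used in nearly all cells, and Nfe2l1 is the known factor that raises their transcription when the proteasome is impaired.

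Proteasome genes carried a peak near a gene end in a larger share of cases than protein-coding genes as a whole, in every library. Within 1 kb, 27, 21, 28 and 26 of the 39 genes were called, which is 69.2%, 53.8%, 71.8% and 66.7%. The background was 47.3%, 35.7%, 37.4% and 37.4% of all protein-coding genes. The lowest count belonged to mTEClo 2, the shortest list, and its 95% Wilson interval of 38.6% to 68.4%, which covers counting error only, still began above its background. In all 4 libraries 15 genes (38.5%) were called, against a background of 17.1%. No library called 6 genes (15.4%), against 34.0% of all genes. Of the 39 genes, 13 have an end of another gene within 1 kb of one of their own ends. In 6 of these both ends are starts. A peak there need not belong to the proteasome gene.

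The gap to the background was narrower in the wider window. Within 5 kb, 31, 27, 29 and 34 proteasome genes were called (79.5%, 69.2%, 74.4% and 87.2%), against 69.2%, 59.7%, 59.8% and 64.1% of all genes. All 4 libraries called 18 genes (46.2%), against 36.0%, and no library called 2 (5.13%), against 14.5%. The background of mTEClo 1 at 5 kb lay inside the Wilson interval of its own share, 64.5% to 89.2%, as did that of mTEClo 2, 53.6% to 81.4%, and that of mTEChi 1, 58.9% to 85.4%.

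**Figure D1:**
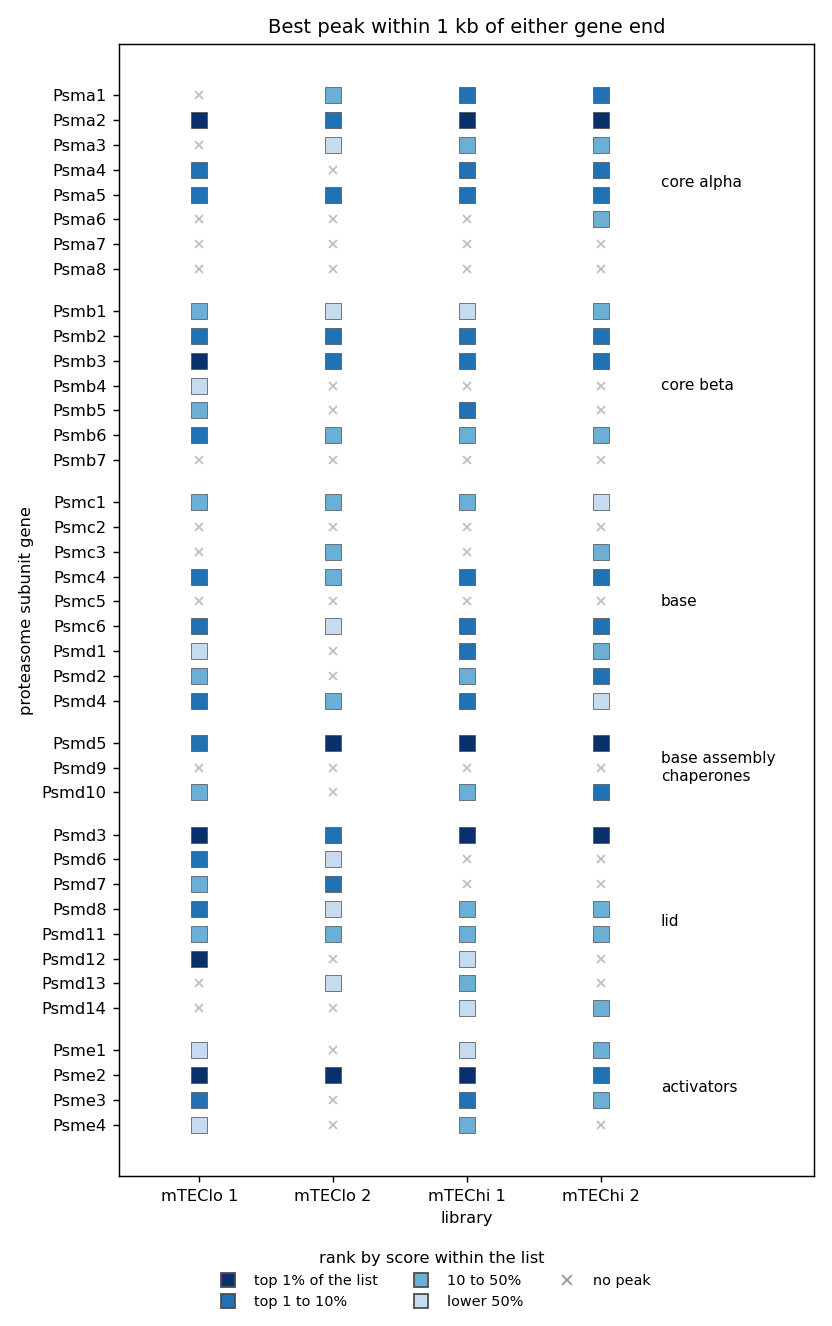
Each square marks a proteasome gene (rows, by subcomplex) with a peak within 1 kb of a gene end in a library (columns), coloured by the rank of its best peak by score within that list, and a cross marks no peak. A row of 4 squares is seen for 15 genes and a row of 4 crosses for 6; Psma2, Psmd3, Psmd5 and Psme2 hold the darkest rows.

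**Figure D2:**
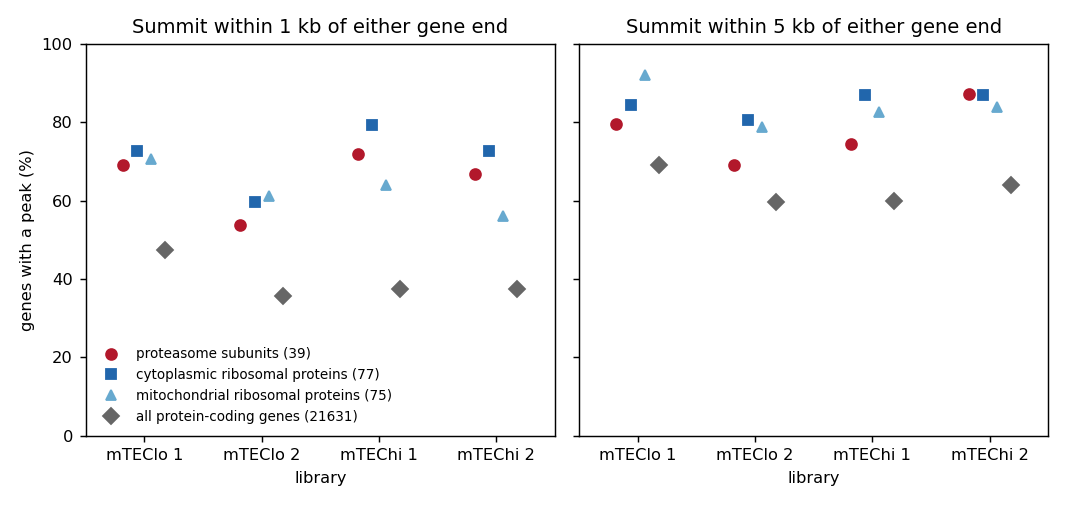
The share of genes (%) with a summit within 1 kb (left) or 5 kb (right) of either gene end is plotted for each library, with points set side by side within a library for proteasome, cytoplasmic ribosomal, mitochondrial ribosomal and all protein-coding genes. The proteasome genes lie between 53.8% and 71.8% within 1 kb, where all genes lie between 35.7% and 47.3%.

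The peaks of proteasome genes lay at gene starts. RefSeq (GRCm38.p6) promoter entries gave the strand and start of 32 of the 39 genes; Psma8, Psmb1, Psmb2, Psmb7, Psmc3, Psmd3 and Psmd7 have none. A peak lay within 1 kb of a start for 26, 16, 26 and 23 of the 32 genes (81.2%, 50%, 81.2% and 71.9%), against 46.9%, 34.6%, 37.5% and 35.6% of 17274 genes with a start. By starts the Wilson interval of mTEClo 2, 33.6% to 66.4%, included its background. All 4 libraries called 13 (40.6%), against 17.9%, and 3, namely Psma7, Psmc5 and Psmd9, were called in no library, against 37.7%. At the opposite end of the gene the counts were 3, 2, 1 and 0 of 32, against backgrounds of 9.85%, 7.96%, 6.92% and 8.67%. The Wilson interval of 0 of 32 reaches 10.7%, above its background, so a difference at the opposite ends was not detectable with this number of genes.

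The best summit stood shortly upstream of the start. Its median position was -49.0, -46.5, -73.5 and -59.0 bp, where negative values are upstream, and for all genes it was -47.0, -60.5, -87.0 and -70.0 bp, which is close to these values. The spread around it was smaller for proteasome genes: 23 of 26, 11 of 16, 22 of 26 and 15 of 23 summits (88.5%, 68.8%, 84.6% and 65.2%) lay from 250 bp upstream to 50 bp downstream of a start, against 56.0%, 55.9%, 62.4% and 56.3% for all genes called. For the 13 genes called in all 4 libraries, the 4 best summits spanned a median of 74.0 bp, and 12 of the 13 (92.3%) spanned no more than 300 bp. For all 3091 such genes the median span was 138 bp, and 72.6% spanned no more than 300 bp. The narrowest span was 14 bp at Psma3 and the widest 518 bp at Psme2.

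**Figure D3:**
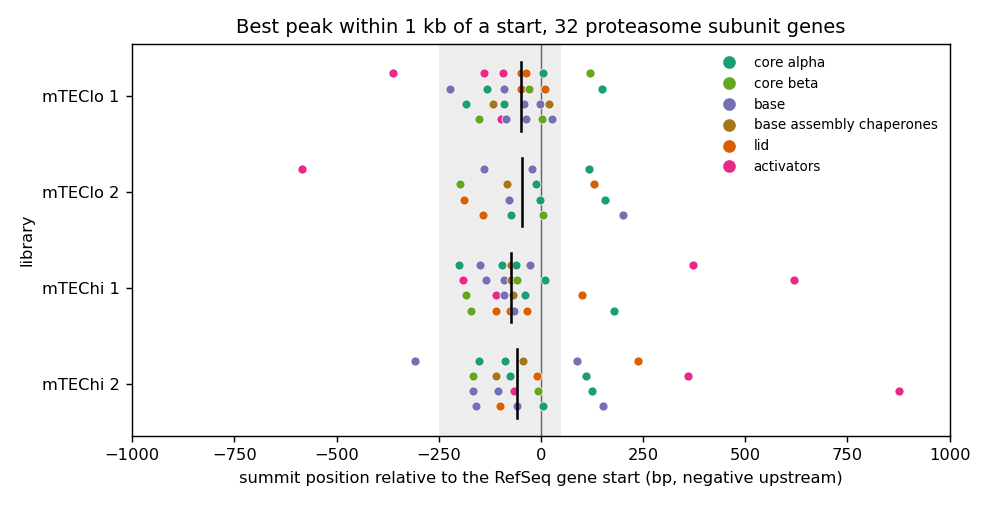
Each point is the best peak within 1 kb of the RefSeq start of a proteasome gene, placed by its distance from the start in bp (negative upstream) in 1 row per library and coloured by subcomplex, with small vertical offsets to separate points. Black bars are medians, at -46.5 to -73.5 bp, and the grey band, from 250 bp upstream to 50 bp downstream, holds 23 of 26, 11 of 16, 22 of 26 and 15 of 23 points.

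Peaks at proteasome genes belonged to the top of a list more often than those of all genes, least so in mTEClo 2. The authors' score of a peak, read as the -log10 of its p or q, was used only to rank peaks within a list, with ties sharing the best rank. The best peak within 1 kb belonged to the highest 10% of its list for 16 of 27, 8 of 21, 15 of 28 and 13 of 26 called genes, which is 59.3%, 38.1%, 53.6% and 50%. For all called genes the shares were 34.6%, 33.7%, 40.8% and 40.7%. In mTEClo 2 the median rank was the same for both, at the highest 20.6%. For cytoplasmic ribosomal protein genes the shares were 55.4%, 47.8%, 63.9% and 64.3%, above those of proteasome genes in 3 of the 4 libraries, and for mitochondrial ones 39.6%, 32.6%, 45.8% and 35.7%. When each list was reduced to its 10000 highest-scoring peaks, the numbers of proteasome genes called within 1 kb fell to 16, 8, 16 and 12 of 39, where 16.9%, 12.9%, 17.6% and 15.0% of all genes were called. The number called in all 4 fell to 6 (15.4%), against 5.90% of all genes. Those 6 were Psma2, Psma5, Psmb3, Psmd3, Psmd5 and Psme2.

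Stretches of promoter are printed below for genes with summits inside or, at Psmb5, on either side of them, with the letters searched in all promoters set in capitals. They are from RefSeq (GRCm38.p6), written 5′ to 3′ on the strand of the gene. The motifs were the antioxidant response element core TGACNNNGC, known as the site type of Nfe2l1 and Nfe2l2, the CCAAT box CCAAT, the GC box GGGCGG, the Ets core CCGGAAG, the palindrome core TCTCGCG and the E-box CACGTG. Both strands were searched, a promoter was counted once for each motif, and matches of different motifs may overlap. A match is a run of letters and was not tested as a bound site.

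The core alpha genes encode the rings that gate the barrel, and 3, 4, 5 and 6 of the 8 were called within 1 kb. Psma2 (chr13:14613242-14625673) had summits 91, 72, 94 and 88 bp upstream of its start, with scores of 15.7, 11.0, 33.1 and 12.8. Each of these ranked in the highest 1.22% of its list, so all 4 libraries placed a strong peak within a span of 22 bp. The start of Mrpl32, a mitochondrial ribosomal protein gene, lies 205 bp from that of Psma2 on the opposite strand, and the summits stand between the 2 starts, so they cannot be given to one gene. The stretch that spans the summits, chr13:14613132-14613201 on the plus strand, holds a CCAAT box.

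Psma2: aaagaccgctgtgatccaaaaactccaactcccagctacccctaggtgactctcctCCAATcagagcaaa

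Psma5 (chr3:108256926-108279952) was the other alpha gene called in all 4 libraries, with summits 150, 157, 179 and 125 bp downstream of its start and scores of 9.28, 9.65, 17.6 and 6.01. Its peak thus sat inside the gene in every library, unlike that of most proteasome genes. Psma1 was called in mTEClo 2 and both mTEChi libraries, at 118, -38 and 111 bp from its start. Psma4 was called in mTEClo 1 and both mTEChi libraries, at -184, -201 and -152 bp from its start.

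At Psma3 and Psma6 the start that carries the peak lies inside the gene interval, out of reach of the windows at its ends. The Psma3 interval (chr12:70969283-70995877) begins well before its RefSeq start at 70974623, and its summits stood at 4, -3, 11 and 6 bp from that start, with scores of 16.5, 3.94, 15.3 and 7.98. Psma6 (chr12:55384222-55418459) has 2 RefSeq starts, and the downstream one, at 55398825, carried summits at -132, -13, -60 and -76 bp in the 4 libraries, with scores of 6.79, 4.93, 10.7 and 6.01. By gene ends Psma3 was called within 1 kb in 3 libraries and Psma6 in mTEChi 2 alone, from other peaks. Counted by starts, both genes were therefore called in every library.

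Psma7 and Psma8 were the 2 proteasome genes with no peak within 5 kb in any list. Psma8 (chr18:14706135-14762301) encodes the testis-restricted alternative to the alpha subunit of Psma7, and 1, 0, 3 and 0 peaks lay inside its interval. Psma7 (chr2:180036367-180042464) is used throughout the body and held no peak in its interval either. Its start lies 19 bp from that of Ss18l1, so no summit lay near that start either. The promoter of Psma7 has 77% G and C and 41 CpG, the highest of both among the 35 promoters of proteasome genes.

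The core beta genes were called 6, 4, 5 and 4 times of 7 within 1 kb, and Psmb1, Psmb2, Psmb3 and Psmb6 were called in all 4 libraries. Psmb5, Psmb6 and Psmb7 carry the catalytic sites, and the calls of these 3 genes differed from each other. Psmb6 (chr11:70525324-70527858), the caspase-like subunit, had summits at 3, 5, -58 and -8 bp from its start, with scores of 8.0, 3.94, 4.08 and 3.83. Psmb5 (chr14:54614120-54617995), the chymotrypsin-like subunit, was called in mTEClo 1 (121 bp downstream, score 5.12) and mTEChi 1 (183 bp upstream, score 14.6) alone. Psmb7 (chr2:38588046-38643952), the trypsin-like subunit, was called in no library within 1 kb and within 5 kb in mTEChi 2 alone, 2255 bp from the gene end. Inside its interval lay 3, 3, 4 and 2 peaks. Psmb6 and Psmb5 are among the 6 proteasome genes whose promoter holds the antioxidant response core; in Psmb6 it is centred at -5 bp from the start and the summits stood at 8, 10, -53 and -3 bp from that centre. In Psmb5 it is centred at -43 bp, and the summits of mTEClo 1 and mTEChi 1 stood at 164 and -140 bp from it. Neither summit lies inside the Psmb5 stretch, chr14:54618018-54618057 on the minus strand, which reads as follows.

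Psmb5: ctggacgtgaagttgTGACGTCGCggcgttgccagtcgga

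The beta peak with the highest rank was at Psmb3, a noncatalytic subunit, in every library but mTEChi 1, where it was at Psmb5. Psmb3 (chr11:97703434-97713500) had summits 151, 199, 172 and 167 bp upstream, with scores of 30.1, 9.25, 12.3 and 5.81, and the mTEClo 1 peak ranked in the highest 0.101% of its list, the highest rank of any proteasome gene in any library. Psmb2 (chr4:126677637-126709715) had summits 47, 55, 215 and 93 bp from the lower end of its interval, with scores of 11.3, 7.75, 7.85 and 5.43. Psmb1 was called 42, 256, 188 and 122 bp from its upper end with low scores of 4.56, 3.03, 3.19 and 4.33. Psmb4 was called in mTEClo 1 alone within 1 kb, with a score of 2.74. The Psmb3 stretch that spans its summits, chr11:97703234-97703358 on the plus strand, has a CCAAT box at its downstream edge, and the summits stand at -68 to -116 bp from its centre.

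Psmb3: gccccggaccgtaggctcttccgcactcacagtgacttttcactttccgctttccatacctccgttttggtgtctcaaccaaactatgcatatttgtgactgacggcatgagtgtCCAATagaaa

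The base genes were called 6, 5, 6 and 7 times of 9 within 1 kb, and Psmc1, Psmc4, Psmc6 and Psmd4 in all 4 libraries. Psmc1 to Psmc6 encode the ATPases, Psmd1 and Psmd2 the scaffolds of the base, and Psmd4 a receptor of ubiquitin chains. Psmc6 (chr14:45329823-45349074) had summits at -85, -138, -91 and -59 bp from its start, with scores of 10.6, 3.03, 12.4 and 7.87. Psmc4 (chr7:28041702-28050092) had summits 42, 79, 67 and 105 bp upstream, with scores of 10.0, 4.14, 7.93 and 7.62. Psmd4 (chr3:95032688-95042614) had summits 36, 21, 26 and 165 bp upstream, with scores of 8.0, 3.94, 7.26 and 2.88. In all 3 genes the score of mTEClo 2 ranked lower in its list than those of mTEClo 1 and mTEChi 1 did in theirs. The stretches around these summits, of which the mTEChi 2 summit of Psmd4 lies outside its own, hold GC boxes in Psmc4, an Ets core with a CCAAT box in Psmd4, and an Ets core that runs into a GC box in Psmc6. They are chr14:45329684-45329768 on the plus strand for Psmc6, and chr7:28050133-28050202 and chr3:95042635-95042744 on the minus strand for Psmc4 and Psmd4.

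Psmc6: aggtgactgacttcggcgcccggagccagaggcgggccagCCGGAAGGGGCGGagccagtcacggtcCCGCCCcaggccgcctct

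Psmc4: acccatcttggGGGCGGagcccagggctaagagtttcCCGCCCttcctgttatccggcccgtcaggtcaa

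Psmd4: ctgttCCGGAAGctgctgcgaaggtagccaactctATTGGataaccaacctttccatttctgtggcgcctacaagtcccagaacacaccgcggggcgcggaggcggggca

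The Psmc6 summits stood at 12, -41, 6 and 38 bp from the centre of the Ets core. Psmc1 was called in all 4 libraries at less constant places, -91, 200, -90 and 89 bp from its start. Those summits stood farther from the centre of its Ets core, at -66, 225, -65 and 114 bp. Psmd2 and Psmd1 were each called in mTEClo 1 and both mTEChi libraries within 1 kb and not in mTEClo 2. Psmc3 was called in mTEClo 2 and mTEChi 2 alone. Psmc2 and Psmc5 were called in no library within 1 kb of a gene end and in mTEClo 1 and mTEChi 2 within 5 kb. For Psmc2 those 2 peaks stood 27 and 151 bp downstream of the later of its 2 RefSeq starts, which lies inside the gene interval. Psmc5, whose start is 101 bp from that of Ftsj3, had neither a peak within 1 kb nor one in its interval.

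The 3 chaperones that assemble the base and then leave it were called 2, 1, 2 and 2 times within 1 kb. Psmd5 (chr2:34852087-34870965) had summits at -118, -82, -69 and -44 bp from its start, with scores of 14.9, 16.5, 37.4 and 12.8, and each ranked in the highest 1.21% of its list. This was 1 of the 4 proteasome genes, with Psma2, Psmd3 and Psme2, whose best peak was in the highest 1.5% of all 4 lists. The summits of Psma2, and that of Psme2 in mTEClo 2, also lie near the start of another gene. Psmd10, the gene of the protein also called gankyrin, was called in mTEClo 1 and both mTEChi libraries, 19 bp downstream and 73 and 110 bp upstream. Psmd9 was called within 5 kb in both mTEChi libraries alone, far from its start, 1938 and 1887 bp from the opposite end, with scores of 2.77 and 4.34. The Psmd5 stretch, chr2:34870973-34871082 on the minus strand, spans the 4 summits and holds 2 copies of the palindrome, in which the core overlaps its own reverse complement, besides a GC box.

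Psmd5: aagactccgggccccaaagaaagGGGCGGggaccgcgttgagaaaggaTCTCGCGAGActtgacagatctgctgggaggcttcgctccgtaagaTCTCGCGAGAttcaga

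The Psmd5 summits stood at -49, -13, 0 and 25 bp from the centre of the first core of the upstream copy. Of all 21045 promoters 3.51% hold this core, and of the 35 proteasome promoters 2 do, those of Psmd5 and Psmd11.

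The lid genes were called 6, 6, 6 and 4 times of 8 within 1 kb, and each was called in at least 2 libraries. Psmd3 (chr11:98682554-98695978), a subunit of the lid, had summits 159, 221, 158 and 189 bp from the lower end of its interval, with scores of 24.9, 10.3, 46.8 and 25.2. Its peaks ranked in the highest 0.210%, 1.5%, 0.184% and 0.188% of the lists. Psmd11 (chr11:80428615-80473248) had summits 36, 142, 74 and 10 bp upstream of its start, with scores of 5.12, 4.93, 5.59 and 4.34, weaker in rank than the other genes named for their rank. Psmd8 was called in all 4 libraries as well, but in mTEClo 2 only at the end opposite its start. The Psmd11 stretch, chr11:80428535-80428611 on the plus strand, has a GC box and an Ets core on the reverse strand within 20 bp of the start. The mTEClo 2 summit of Psmd11 lies outside this stretch.

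Psmd11: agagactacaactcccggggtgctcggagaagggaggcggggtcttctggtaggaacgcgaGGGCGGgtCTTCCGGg

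The calls of 3 genes, all of the lid, split by cell state within 1 kb, at shares close to those of all genes. Psmd6 and Psmd7 (2 of 39, 5.13%) had peaks in mTEClo 1 and mTEClo 2 and in no mTEChi library, and 4.08% of all genes showed this pattern. Psmd6 (chr14:14112185-14120945) had summits 49 bp upstream and 131 bp downstream of its start, with scores of 9.28 and 3.48. Psmd7 (chr8:107580380-107588482), the partner of the lid deubiquitinase, had summits 46 and 12 bp from its upper end, with scores of 6.21 and 8.37. Psmd14 (chr2:61711694-61800376), the lid deubiquitinase that removes ubiquitin chains, was called in both mTEChi libraries alone (1 of 39, 2.56%), a pattern held by 1.94% of all genes. Its summits stood 101 and 238 bp downstream of the start, with low scores of 3.19 and 3.83, and 1 peak of mTEClo 2 lay inside its interval. Within 5 kb no proteasome gene was called in the mTEClo libraries alone (0 of 39, against 3.53%), since mTEChi 2 had peaks 3911 bp from the start of Psmd6 and 3557 bp from an end of Psmd7. Psmd9 and Psmd14 were called in the mTEChi libraries alone within 5 kb, 2 of 39 (5.13%), against 2.23%. These counts changed with the libraries used, but leaving out a library removes 1 condition of a class, so its count could only stay or rise. Within 1 kb the genes called in mTEChi alone numbered 7 without mTEClo 1, 3 without mTEClo 2 and 2 without mTEChi 1. Within 5 kb that class numbered 7 without mTEClo 1, and the mTEClo class numbered 3 without mTEChi 1 and 3 without mTEChi 2. The shares of all genes under these looser conditions are not given here. Psmd12 was called in mTEClo 1, with a score of 19.7, and in mTEChi 1, with 2.77. Psmd13 was called in mTEClo 2 and mTEChi 1, so both genes crossed the states. The start of Sirt3 lies 85 bp from that of Psmd13. The Psmd13 summits stood at -189 and -109 bp from its start, so they cannot be given to one gene.

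The activators were called 4, 1, 4 and 3 times of 4 within 1 kb, and only Psme2 was called in mTEClo 2. Psme1 and Psme2 are induced by interferon and form 1 ring together, Psme3 forms the nuclear ring, and Psme4 is a single large protein. Psme2 (chr14:55587440-55591101) had best summits 93, 584, 111 and 66 bp upstream of its first start, with scores of 21.9, 13.9, 28.8 and 11.7, in the highest 1.15% of all 4 lists. The mTEClo 2 summit stands apart from the others and next to Rnf31, whose gene interval begins 612 bp from that of Psme2. Psme1 (chr14:55578494-55581527) had weak peaks, 361 bp upstream and 372 and 359 bp downstream of its start in mTEClo 1, mTEChi 1 and mTEChi 2, with scores of 3.62, 3.19 and 3.83. The 2 genes are neighbours, and within 5 kb they shared 1, 0, 1 and 2 peaks, the only peaks counted for more than 1 proteasome gene. Psme3 (chr11:101316213-101323537) was called in the same 3 libraries as Psme1, at -98, -190 and 876 bp, with scores of 8.63, 12.4 and 3.83. Psme4 (chr11:30771775-30881150) was called in mTEClo 1 and mTEChi 1, at -139 and 620 bp, with scores of 3.17 and 3.62. Psme2 thus ranked higher than the other 3 activators in every library that called them.

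By subcomplex, the mean number called within 1 kb over the 4 libraries was 4.50 of 8 alpha genes (56.2%), 4.75 of 7 beta genes (67.9%), 6 of 9 base genes (66.7%), 1.75 of 3 chaperones (58.3%), 5.50 of 8 lid genes (68.8%) and 3 of 4 activators (75%). Within 5 kb it was 5.25, 5.75, 7.25, 2.25, 6.50 and 3.25 in the same order. These 6 means within 1 kb lay above the background of every library. In single libraries the share of alpha genes in mTEClo 1 (3 of 8) and those of activators (1 of 4) and chaperones (1 of 3) in mTEClo 2 lay below it. Within 5 kb the mean share of alpha genes, 65.6%, lay below the background of mTEClo 1, 69.2%. Differences between subcomplexes were not tested. The order changed between libraries: activators had the highest share in mTEClo 1 and the lowest in mTEClo 2. Alpha genes had the lowest share in mTEClo 1, and by starts in place of gene ends they gained Psma3 and Psma6.

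The number of proteasome genes called did not separate the cell states. Within 1 kb it was 24.0 ± 4.24 in mTEClo and 27.0 ± 1.41 in mTEChi (SD, n = 2), a difference of 3 genes that was smaller than the spread in mTEClo (two-sided exact permutation test, p = 0.667). Within 5 kb it was 29.0 ± 2.83 and 31.5 ± 3.54 (SD, n = 2), a difference of 2.50 (exact permutation test, p = 0.667), and by starts 21.0 ± 7.07 and 24.5 ± 2.12 (SD, n = 2; exact permutation test, p = 1.00). A comparison of 2 against 2 libraries cannot give a p under 0.333, so no such difference could reach a usual threshold. The difference within 1 kb was 6 without mTEClo 1 and 0 without mTEClo 2, and within 5 kb it was 5.00 without mTEChi 1, 0.50 without mTEClo 2 and 0 without mTEChi 2.

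Ribosomal protein genes, the other large families of constantly used genes, also carried peaks more often than genes as a whole. Both families were taken by symbol, with a final a, l, x or y kept for the cytoplasmic one. Tissue-restricted members were not looked for. Within 1 kb the share of 77 cytoplasmic ribosomal protein genes was 72.7%, 59.7%, 79.2% and 72.7%, above that of proteasome genes in 4 of 4 libraries by a mean of 5.72 percentage points (two-sided exact sign-flip permutation test, p = 0.125, the smallest that 4 libraries allow). The share of 75 mitochondrial ribosomal protein genes was 70.7%, 61.3%, 64.0% and 56.0%, below that of proteasome genes in the mTEChi libraries and above it in the mTEClo libraries, with a mean difference of 2.38 points (exact permutation test, p = 0.625). In all 4 libraries 48.1% of the cytoplasmic and 29.3% of the mitochondrial genes were called, beside 38.5% of proteasome genes. Within 5 kb both families were called more often than proteasome genes in 3 of 4 libraries, and the exception was mTEChi 2. The shares were 84.4%, 80.5%, 87.0% and 87.0% for the cytoplasmic and 92.0%, 78.7%, 82.7% and 84.0% for the mitochondrial family. The proteasome share minus these averaged -7.18 and -6.77 points (exact permutation test, p = 0.250 for each). With the 10000 highest peaks the latter difference turned to 2.87 points (exact permutation test, p = 0.625), and that within 1 kb grew to 8.0 points (exact permutation test, p = 0.125). With the same peaks the differences from the cytoplasmic family were -10.2 points within 1 kb and -13.8 within 5 kb (exact permutation test, p = 0.125 for each). With peaks above each list's median score the mitochondrial difference was 9.54 points within 1 kb (exact permutation test, p = 0.250) and -2.41 within 5 kb (p = 0.75), and the cytoplasmic difference within 5 kb was -12.8 (p = 0.125).

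Promoters of proteasome genes were richer in CpG than promoters as a whole. Their 35 RefSeq promoters, of 250 bp before to 50 bp after a start and belonging to 32 genes, had a median of 59.0% G and C and 20.0 CpG, against 56.7% and 13.0 for all 21045 promoters. With 13 or more CpG there were 27 of the 35 and 10822 of all. In that class a peak lay within 1 kb of 66.2%, 48.4%, 54.5% and 50.4% of all promoters and of 77.8%, 48.1%, 81.5% and 70.4% of proteasome promoters. The share of proteasome promoters was thus level with that of all CpG-rich promoters in mTEClo 2 and above it in the other 3 libraries. These shares rest on 27 promoters, and the differences were not tested. All 4 libraries called 10 of the 27 (37.0%), against 27.8%, a smaller gap than over all promoters. The part of CpG content in the calls was not tested.

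Of the 6 motifs, the Ets core differed most in its share from all promoters. It was present in 13 of the 35 proteasome promoters (37.1%), those of Psma6, Psmc1, Psmc2, Psmc6, Psmd2, Psmd4, Psmd6, Psmd11, Psmd12, Psmd13, Psme3 and Psme4, and in 11.7% of all promoters. Among promoters with 13 or more CpG the shares were 12 of 27 (44.4%) and 19.3%. Cytoplasmic and mitochondrial ribosomal protein promoters held it at 34.3% and 31.9%, so the share is not particular to proteasome genes. The GC box was in 62.9% of proteasome and 46.7% of all promoters, but among CpG-rich promoters in 66.7% and 75.6%. The CCAAT box was in 34.3% against 38.5%, the antioxidant response core in 17.1% against 13.0%, and the E-box in 8.57% against 7.91%, each close to the share of all promoters. The 6 promoters with the antioxidant response core were those of Psmb5, Psmb6, Psmc6, Psmd9, Psmd12 and Psme4.

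Over all promoters, those with an Ets core were called more often than the rest. Of those with the core 67.5%, 49.5%, 60.8% and 55.4% had a peak within 1 kb, against 41.9%, 30.4%, 32.6% and 30.9% of those without. Most promoters with the core, 2084 of 2459, had 13 or more CpG. All promoters of that CpG class were called at 66.2%, 48.4%, 54.5% and 50.4%. The part of CpG content in this contrast was not tested. Of the 13 proteasome promoters with it 11, 7, 10 and 8 had a peak, and of the 22 without it 16, 10, 17 and 17. Psmb3, Psma2, Psmd5 and Psme2, which hold some of the highest ranks, have no Ets core in this window.

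**Figure D4:**
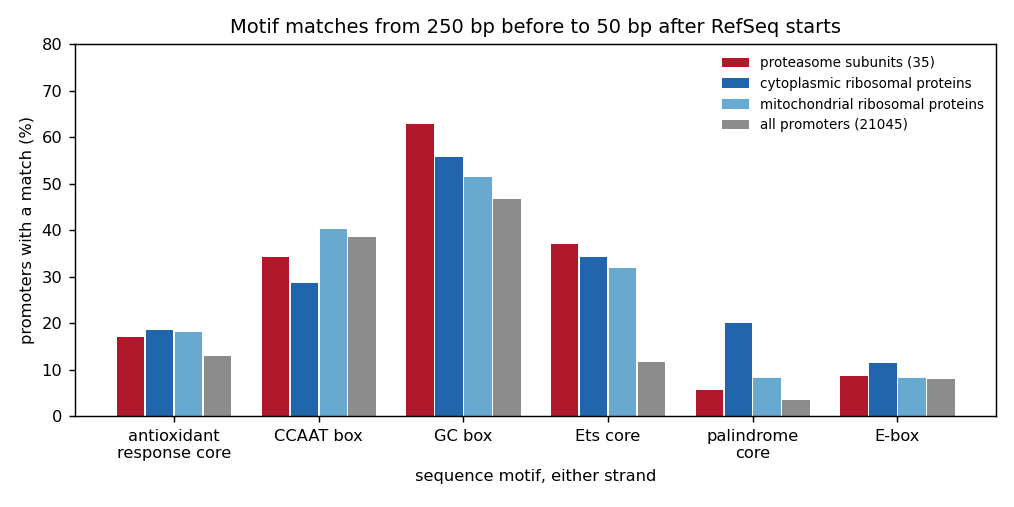
Bars give the share of promoters (%), from 250 bp before to 50 bp after RefSeq starts, that hold each of 6 motifs on either strand, for 35 proteasome, 70 cytoplasmic ribosomal, 72 mitochondrial ribosomal and all 21045 promoters. The 3 families stand at 37.1%, 34.3% and 31.9% for the Ets core, above 11.7% for all promoters.

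Genes that work with these subunits were called at a lower share than the subunit genes within 1 kb, though hardly so in mTEClo 1 (68.6% against 69.2%). The difference was not tested. Of 36 listed genes, 35 matched a RefSeq protein-coding gene, and 24, 16, 19 and 19 of them were called within 1 kb (68.6%, 45.7%, 54.3% and 54.3%, against 47.3%, 35.7%, 37.4% and 37.4% of all genes). All 4 libraries called 12 (34.3%, against 17.1%). Within 5 kb 27, 21, 24 and 32 were called (77.1%, 60%, 68.6% and 91.4%, against 69.2%, 59.7%, 59.8% and 64.1% of all genes). The share in mTEClo 2 was thus level with its background. In all 4 libraries 16 were called (45.7%, against 36.0%). The share of 91.4% in mTEChi 2 lay above the 87.2% of the subunit genes. The inducible catalytic subunits Psmb8, Psmb9 and Psmb10, which replace those of Psmb5, Psmb6 and Psmb7 in cells exposed to interferon, were each called within 1 kb in all 4 libraries. The constitutive counterparts ranged from 4 calls at Psmb6 to 0 at Psmb7. Psmb8 had summits 483, 514, 442 and 493 bp upstream of its start, with scores of 11.3, 12.6, 9.71 and 5.72, and Psmb9 had summits 198, 248, 242 and 218 bp upstream, with scores of 6.37, 16.9, 8.75 and 6.82. Psmb10 had weak peaks with scores of 2.41, 3.94, 5.42 and 4.30. Its mTEClo 2 peak stood at the end opposite its start, 2609 bp downstream of that start. Neighbouring genes were looked up for the constitutive subunit genes only, so a peak at Psmb8, Psmb9 or Psmb10 may belong to another gene. Psmb11, the subunit of cortical thymic epithelium, was called within 1 kb in mTEClo 2 alone, 863 bp downstream of its start with a score of 3.48.

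Nfe2l1, the factor that raises proteasome gene transcription, was called in all 4 libraries with summits at -97, -284, -167 and -80 bp from its start and scores of 11.3, 4.30, 23.6 and 10.1. Nfe2l2, a related factor that acts in oxidative stress, had summits at -6, -82, 90 and 95 bp with scores of 7.20, 7.49, 25.8 and 7.55. Vcp, the ATPase that extracts ubiquitylated proteins for the proteasome, had summits at -63, -52, -98 and -66 bp with scores of 16.5, 16.1, 34.2 and 15.1, within the highest 0.817% of every list. Only Nploc4, a partner of Vcp, was called in both mTEClo libraries alone within 1 kb, and only Psmg4, a chaperone of core assembly, in both mTEChi libraries alone. Each is 1 of 35 related genes, where 4.08% and 1.94% of all genes showed these patterns.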

How the data were processed

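The members, gene lists and tests were chosen with earlier results of these data known. The submitters' processing notes name MACS2 2.2.7.1, SAMtools 1.9, Picard and Bowtie2 2.2.9 and the build mm10. Settings and a control for peak calling were not given in the sources used here. For each library the authors deposited 1 list of 301 bp intervals centred on a summit, each with a score read as the -log10 of its p-value or q-value (which one is not stated; minimum 2.00 in each list). Peak lists hold no read counts, so depth is unknown.

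Summits were compared with the gene intervals in the RefSeq table for GRCm38.p6, the mm10 assembly, by distance to either end. Starts and strands came from RefSeq promoter entries. Motifs were sought in those 300 bp entries on both strands. Of these steps, only the calling of genes by distance to either end was tested on simulated peaks. Library counts were compared by exact permutation tests. Other settings tried were the upper part of each list by its median score, lists shortened to 69359 peaks, the 10000 highest peaks, peak intervals in place of summits, windows of 250 bp, 3 kb and 25 kb, the gene body with 5 kb, starts only, each library left out, and the replicate number as a block. Values per library are given for up to 8 genes called within 1 kb in all 4 libraries with the lowest worst rank, genes called in both libraries of 1 state alone, genes called in no library within 5 kb, the catalytic subunits, Psmd14, the activators, Psma8, and of the related genes Nfe2l1, the inducible subunits and 3 more by the same rank rule, of which 1 is not reported here. Other members with values were picked after their values were seen, as were the printed stretches. Software was scipy 1.17.1, pandas 2.3.3 and numpy 2.4.6 under Python 3.11.15.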

Additional observations from a re-analysis of the deposited data

How the results depend on the processing

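The test between mTEChi and mTEClo cannot give p under 0.333, so its p says nothing about stability. The replicate number as a block gave 3 genes within 1 kb (exact sign flips, p = 0.500) and 2.50 within 5 kb (p = 1.00; the smallest p that 2 pairs allow is 0.500). Differences between libraries of the same number did not go together over genes (r = 0.018 within 1 kb and -0.007 within 5 kb). A call is only yes or no for each gene, so a low r cannot exclude that the numbers pair libraries. Leaving out 1 library gave 0 to 6 and 0 to 5.00 genes, and other settings 0 to 5.50 and 0 to 4.00.

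Proteasome genes called in all 4 libraries numbered 9 (1 kb) and 11 (5 kb) with peaks above the median score (23.1% and 28.2%, against 11.2% and 20.5% of all genes). They numbered 6 and 7 with the 10000 highest peaks (15.4% and 17.9%, against 5.90% and 8.31%) and 34 with a 25 kb window (87.2%, against 72.9%). The class of mTEClo alone within 1 kb numbered 1 above the median score and by starts, and 0 with the 10000 highest peaks, a 25 kb window or the gene body. Within 5 kb it numbered 1 above the median score, 2 with windows of 250 bp or 3 kb, and 0 to 3 with a library left out. The class of mTEChi alone within 1 kb numbered 2 above the median score and with a 3 kb window, and 1 to 7 with a library left out. Within 5 kb it numbered 1 above the median score, with the 10000 highest peaks, with windows of 250 bp or 25 kb, with the gene body and by starts, and 2 to 7 with a library left out. With a library left out, a class of either state has 1 condition fewer, so its count could only stay or rise. No share of all genes is given here for these classes in other settings. With the 10000 highest peaks the mean numbers of beta, base, lid and activator genes were 2.25, 2.50, 2.25 and 1.5 within 1 kb and 2.75, 2.75, 2.25 and 1.75 within 5 kb, and that of chaperones within 5 kb was 1.25. Fewer peaks remain in that setting by its construction. The difference from mitochondrial ribosomal protein genes within 5 kb turned to 2.87 points there; the cause was not tested. The number of libraries, and depth that is unknown, limit these comparisons.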
